A study of Mus musculus with 6 samples.

Results

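The 42 genes described here encode collagens, basement membrane proteins, elastic fibre and adhesive glycoproteins, small proteoglycans, enzymes that crosslink or remodel the matrix, and 2 growth factor receptors of fibroblasts and mural cells. They were chosen by name, as the rows of the deposited count table that carry these symbols, and make up 42 of the 21878 genes in the table. Earlier results of these data were known at that choice, so shares of the 42 set beside those of all genes are descriptive. RNA-seq was performed on thyroid glands of female mice at 12 weeks of age, from 3 mice labelled Thy-Tet1-/- and 3 labelled Thy-Tet1+/+. In Thy-Tet1-/- mice the floxed Tet1 gene, which encodes a DNA demethylase that oxidizes 5-methylcytosine, is meant to be deleted by a Cre recombinase that acts in thyroid follicular epithelial cells. Thy-Tet1+/+ mice were the wild-type controls from crosses of Tet1 flox/+ mice with the Cre line. The sample titles call Thy-Tet1+/+ control and Thy-Tet1-/- treatment, and the study describes no treatment of these mice other than the genotype. Cre is not directed to the fibroblasts, pericytes or endothelial cells that make much of the matrix, and the libraries were made from RNA of the whole gland.

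The extracellular matrix of the thyroid has an interstitial part and a basement membrane. Fibroblasts between the follicles secrete the fibrillar collagens, the collagens that sit on fibrils, the small leucine-rich proteoglycans and the elastic fibre proteins. Each follicle and each of the many capillaries rests on a sheet of collagen IV and laminin, which nidogens and perlecan tie together and to which the epithelial and endothelial cells contribute.

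Of the 42 matrix genes, 8 met the study's limits for a difference, a change of over 1.5-fold in either direction together with p under 0.05, which was taken here as the p before adjustment. Pdgfra, Pdgfrb, Lama2 and Nid1 were higher in the libraries labelled Thy-Tet1-/-, with log2 fold changes from 0.62 to 0.68. Col18a1, Fn1, Col12a1 and Mmp14 were lower, with log2 fold changes from -1.49 to -0.60. The 4 higher genes were 9.52% of the 42, where 5.54% of the 14143 genes tested met the limits as higher, and the 4 lower genes were also 9.52%, where 3.66% of all genes tested were lower. With p-values adjusted by the Benjamini-Hochberg method in edgeR's quasi-likelihood test, 0 of the 42 were under 0.05, and the smallest adjusted p was 0.0730. That limit was passed by 0.113% of all genes tested. At an unadjusted p under 0.05 there were 13 of the 42, or 31.0%, against 18.9% of all genes tested, and DESeq2 gave 8 of the 42 (19.0%) an adjusted p under 0.05, against 8.43% of all genes.

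The group moved in no common direction. The fitted change was above 0 for 25 members and below 0 for 17, the median log2 fold change of the members was 0.06, and that of all genes tested was 6e-04. The 3 libraries of one group lay entirely above those of the other for 7 members that were higher (16.7%, against 12.5% of all genes tested) and for 10 that were lower (23.8%, against 14.3%). The split depends on the scaling. With library totals in place of TMM factors, 6 members were higher (10.4% of all genes tested were) and 2 lower (1.68%), and the median of all genes stood at 0.19 on the log2 scale. With scaling to follicular cell markers, 11 were higher (18.8% of all genes tested were) and 1 lower (0.863%), and the median of all genes stood at 0.36. That scaling gives its 10 markers equal weight. They include the TSH receptor gene Tshr, whose log2 fold change was -2.16, and Slc26a4, which had only 1 to 5 counts per library and was not tested. How far these genes set the shift was not tested. The median of the members minus that of all genes stayed at 0.06 with library totals and at 0.05 with the follicular markers.

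**Figure D1:**
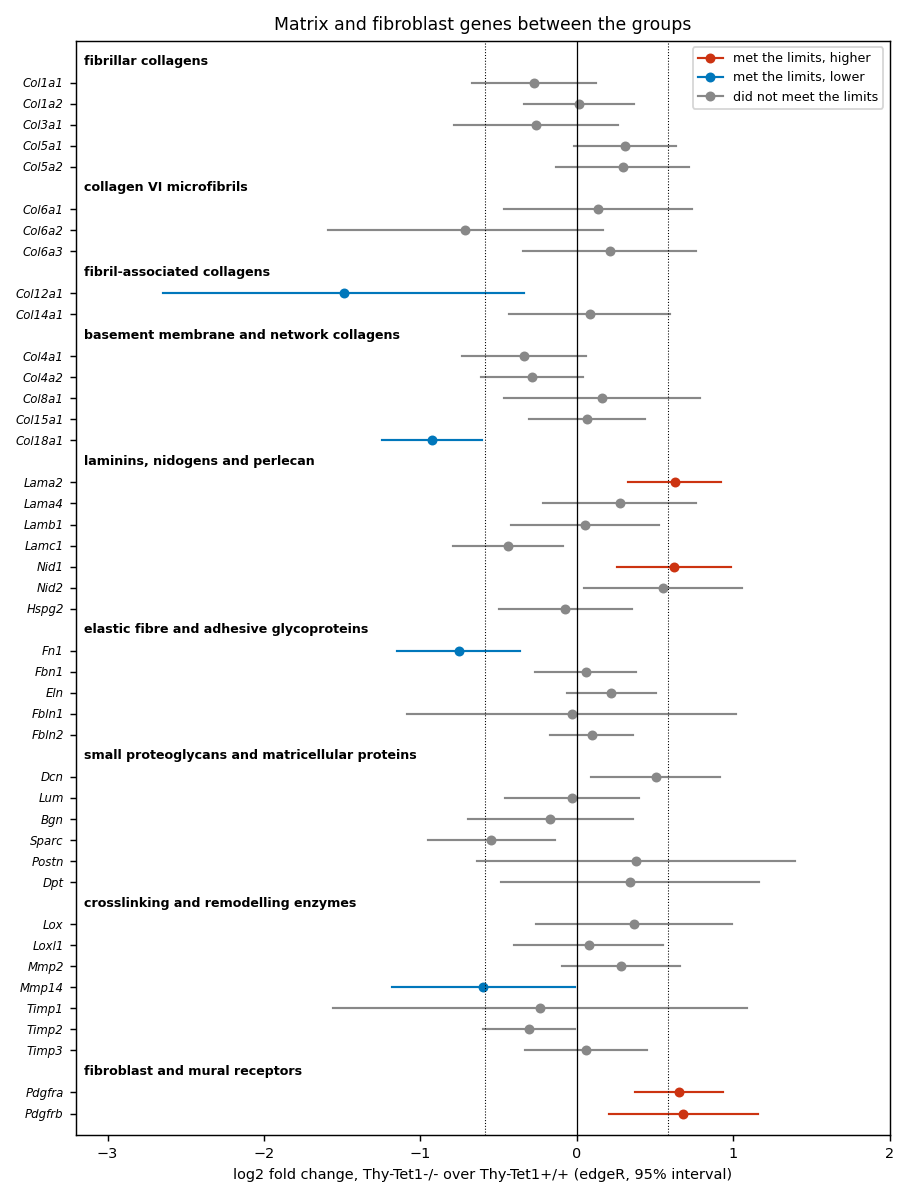
Log2 fold change of each of the 42 matrix genes in the libraries labelled Thy-Tet1-/- over Thy-Tet1+/+ (horizontal axis, edgeR, TMM scaling), grouped by role, with bars for the 95% confidence interval and dotted lines at the limit of 1.5-fold in each direction. Red points (4) and blue points (4) met the limits, grey points (34) did not, and the 95% interval of 29 members includes 0.

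Total counts were between 8867683 and 19950898 per library, and the 42 genes took between 0.599% and 0.702% of them. A level of 3 counts corresponded to between 0.150 and 0.338 CPM (counts scaled to a common library size, here by library totals and elsewhere by TMM-scaled totals), and such floors cover counting error only. The biological coefficient of variation over all genes was 0.327. Tet1 itself went against the labels: the reads counted to it were 48, 71 and 62 in Thy-Tet1+/+ against 172, 162 and 241 in those labelled Thy-Tet1-/-. The deposited counts are per gene, so whether these Tet1 counts include the floxed part of the gene was not analysed here. By tissue staining, the study reported less TET1 protein, and less of the oxidized cytosine that it makes, in thyroids of Thy-Tet1-/- mice. Those are not measures of RNA. Where directions are given below, they are those of the libraries as labelled.

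For 27 of the 42 genes the RefSeq promoter table (GRCm38.p6) held the 250 bases before an annotated transcript start, in 31 windows. Of these, 14 lie at least in part within the extent of their own gene as RefSeq gives it, and 4 consist of annotated exon throughout. The GC box GGGCGG, read on either strand, was in 18 of these windows (58.1%), against 32.7% of the 32851 windows of all genes. CCAAT on either strand was in 9 (29.0%), against 33.8%, and TATAAA on either strand in 2 (6.45%), against 12.4%. Matches of these motifs can overlap by their end letters, and each match is a run of letters and not a shown binding site. The median number of CpG dinucleotides, the sites on which DNA methylation acts, was 8 in the windows of the matrix genes and 6 in all windows.

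The upstream sequences of Col18a1, Mmp14 and Nid1 are shown because these genes met the limits and the bases lie before the RefSeq extent of the gene and outside annotated exons (GENCODE M21). They are written 5′ to 3′ on the strand of the gene, with GC boxes (GGGCGG or its reverse complement) in capitals, for Col18a1 at chr10:77166549-77166780 on the minus strand, for Mmp14 at chr14:54431348-54431597 on the plus strand and for Nid1 at chr13:13437352-13437550 on the plus strand.
Col18a1: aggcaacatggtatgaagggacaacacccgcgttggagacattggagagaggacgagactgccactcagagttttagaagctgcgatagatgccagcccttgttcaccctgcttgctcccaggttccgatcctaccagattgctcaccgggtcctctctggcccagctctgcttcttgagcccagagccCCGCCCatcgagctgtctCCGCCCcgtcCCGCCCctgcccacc
Mmp14: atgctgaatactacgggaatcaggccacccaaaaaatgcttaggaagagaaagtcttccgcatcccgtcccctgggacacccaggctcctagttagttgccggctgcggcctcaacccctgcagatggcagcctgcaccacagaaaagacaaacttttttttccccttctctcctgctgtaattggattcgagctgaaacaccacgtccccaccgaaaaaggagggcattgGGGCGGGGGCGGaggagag
Nid1: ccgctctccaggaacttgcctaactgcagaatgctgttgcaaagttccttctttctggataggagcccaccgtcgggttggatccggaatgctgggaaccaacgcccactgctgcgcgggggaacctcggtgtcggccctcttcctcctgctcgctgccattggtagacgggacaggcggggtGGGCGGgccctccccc
The Col18a1 stretch has 3 GC boxes and 11 CpG dinucleotides in 232 bases, that of Mmp14 has 2 boxes and 10 CpG in 250 bases, and that of Nid1 has 1 box and 13 CpG in 199 bases. The table holds no entry for Fn1, Col12a1 and Pdgfrb. Methylation of these sequences was not measured in these libraries.

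The basement membrane and network collagens held the lowest p of the 42 genes. Col18a1 encodes the chain of collagen XVIII, a heparan sulfate proteoglycan of basement membranes whose C-terminal fragment is endostatin. The gene lies at positions 77052178 to 77166530 of chromosome 10 (mm10, minus strand). Its level was 177, 232 and 197 CPM in Thy-Tet1+/+ and 114, 103 and 102 CPM in those labelled Thy-Tet1-/-. Every library labelled Thy-Tet1-/- was below every Thy-Tet1+/+ library. The log2 fold change was -0.93 ± 0.13 (SE, n = 3 per group), which is 1.90-fold lower, with an adjusted p of 0.0730 in edgeR's quasi-likelihood test and 5.46e-07 in DESeq2. Under scaling to follicular cell markers the fall was 0.57 on the log2 scale, just short of the limit.

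Collagen XV, the other member of the same collagen class, did not show the gap seen for collagen XVIII. Col15a1 ranged from 92.2 to 129 CPM over the 6 libraries, with a log2 fold change of 0.07 and overlapping groups. The ratio of Col18a1 to Col15a1 counts within a library, which needs no scaling between libraries, was 1.52, 2.35 and 1.73 in Thy-Tet1+/+ and 0.883, 0.842 and 1.11 in those labelled Thy-Tet1-/-. The ranges of this ratio did not overlap.

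Col4a1 and Col4a2 encode the alpha chains that form the main collagen IV network and were among the 5 members with the highest CPM. Col4a1 was at 556, 515 and 500.1 CPM in Thy-Tet1+/+ and at 498, 405 and 340 CPM in those labelled Thy-Tet1-/-. Col4a2 was at 439, 469 and 446 CPM against 424, 358 and 327 CPM. In both genes all 3 libraries labelled Thy-Tet1-/- were below the Thy-Tet1+/+ libraries, by a log2 fold change of -0.34 ± 0.17 for Col4a1 (unadjusted p = 0.0828) and -0.29 ± 0.14 for Col4a2 (unadjusted p = 0.0742, both edgeR, SE, n = 3 per group), so neither met the limits. Both signs turned to slightly above 0, at 0.01 and 0.07, with scaling to follicular cell markers.

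The chromosome 8 neighbours Col4a1 and Col4a2 lie head to head on opposite strands and overlap by 85 bases at their starts. Their counts kept a ratio of 1.04 to 1.27 in the 6 libraries, the narrowest range among the 12 gene pairs examined. Col8a1, a short-chain network collagen, was low at 10.6 to 18.1 CPM, with a log2 fold change of 0.16. Summed over these 5 collagens the Thy-Tet1+/+ level was 1300.0 ± 30.6 CPM and that of the other group 1020.0 ± 155 CPM (SD, n = 3), without overlap.

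Laminins, nidogens and perlecan contained members that were higher and members that were lower. Lama2 encodes the alpha chain of laminin-211, which is best known from the basement membranes of skeletal muscle and peripheral nerve. It lies on chromosome 10 from 26981285 to 27617191 (minus strand). Its level was 24.1, 30.4 and 28.1 CPM in Thy-Tet1+/+ and 40.6, 44.3 and 42.8 CPM in those labelled Thy-Tet1-/-. The groups did not overlap, and the log2 fold change was 0.63 ± 0.12 (SE, n = 3 per group) with an adjusted p of 0.0965 in edgeR's quasi-likelihood test. Without Thy-Tet1+/+ replicate 1 it was 0.54, under the limit. Summed skeletal muscle markers were between 19.1 and 8397 CPM in the libraries labelled Thy-Tet1-/-, and their part in the Lama2 values was not tested.

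Nid1 encodes nidogen 1 (entactin), the link between laminin and collagen IV, at positions 13437602 to 13512275 of chromosome 13 (plus strand). Nid1 was at 85.0, 77.5 and 65.2 CPM in Thy-Tet1+/+ and at 121, 131 and 98.8 CPM in the libraries labelled Thy-Tet1-/-. All 3 of the latter exceeded the former, with a log2 fold change of 0.62 ± 0.15 (SE, n = 3 per group) and an adjusted p of 0.117 in edgeR's quasi-likelihood test. The log2 fold change was under the limit, at 0.52 to 0.57, when Thy-Tet1+/+ replicate 3 or Thy-Tet1-/- replicate 1 or 2 was left out.

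Its relative Nid2 was at 68.2, 51.9 and 37.5 CPM against 72.8, 80.9 and 76.7 CPM. These groups did not overlap either, and the log2 fold change of 0.55 ± 0.21 (unadjusted p = 0.0361) was short of the limit. Nid2 shares 437 exonic bases (8.45%) with Rtraf on the opposite strand, and whether reads were counted by strand is not given in the sources used here. The ratio of Nid1 to Nid2 counts was 1.25 to 1.74 in Thy-Tet1+/+ and 1.29 to 1.66 in the libraries labelled Thy-Tet1-/-.

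Lamc1 encodes the gamma chain shared by most laminin trimers. It was at 145, 173 and 198 CPM in Thy-Tet1+/+ and at 126, 139 and 116 CPM in libraries labelled Thy-Tet1-/-, and the groups did not overlap. Its log2 fold change of -0.44 ± 0.15 had an adjusted p of 0.190 in edgeR's quasi-likelihood test and did not reach the limit. It was -0.25 with library totals and -0.09 with scaling to follicular cell markers. The beta chain gene Lamb1 (206 to 325 CPM, log2 fold change 0.05), the endothelial alpha chain gene Lama4 (20.9 to 36.4 CPM, 0.27) and the perlecan gene Hspg2 (240 to 364 CPM, -0.07) overlapped between the groups.

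Among the adhesive and elastic fibre glycoproteins only Fn1 met the limits. Fn1 encodes fibronectin, which binds integrins and collagen and on which other matrix proteins assemble, and lies on chromosome 1 from 71585473 to 71653280 (minus strand). Its level was 107, 161 and 143 CPM in Thy-Tet1+/+ and 80.4, 87.3 and 76.0 CPM in the libraries labelled Thy-Tet1-/-. The lowest Thy-Tet1+/+ library was above the highest of the others. The log2 fold change was -0.76 ± 0.17 (SE, n = 3 per group), or 1.69-fold lower, with an adjusted p of 0.104 in edgeR's quasi-likelihood test, and it shrank to -0.57 with library totals and to -0.40 with scaling to follicular cell markers.

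The elastic fibre genes differed little between the groups. Eln, which encodes elastin, was between 49.3 and 64.0 CPM (log2 fold change 0.22), and Fbn1, which encodes the microfibril protein fibrillin 1, was between 32.3 and 42.8 CPM (0.06). Fbln2 had the narrowest range of all 42 genes, 40.5 to 49.8 CPM, which is 1.23-fold over 6 libraries. Fbln1 was at 67.1 CPM in Thy-Tet1+/+ replicate 3 and between 21.6 and 46.9 CPM in the others, with a log2 fold change of -0.03.

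**Figure D2:**
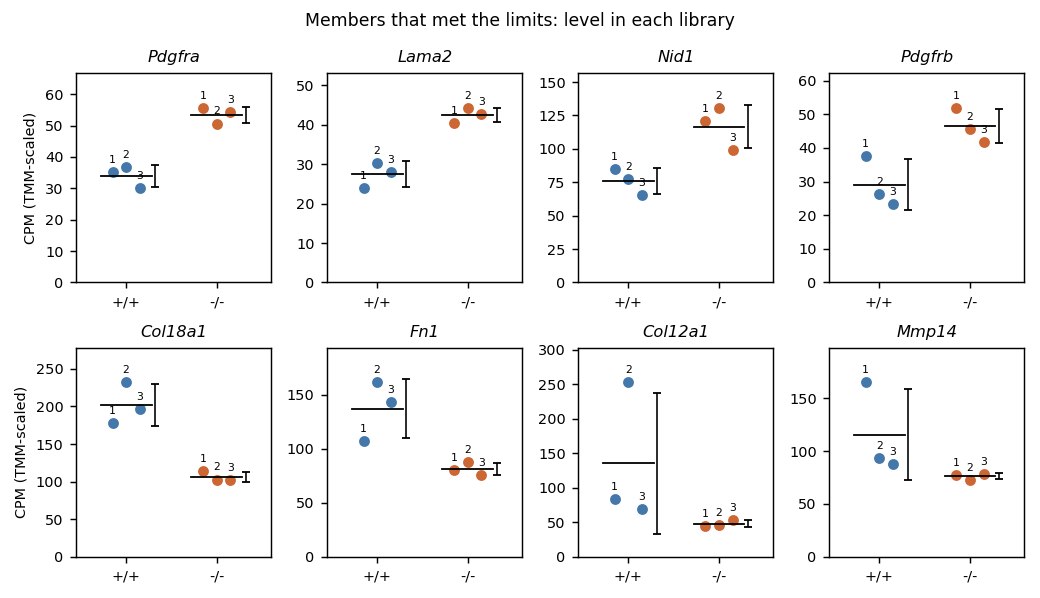
Level of the 8 matrix genes that met the limits in each library (vertical axes, CPM on TMM-scaled library sizes, starting at 0), with points numbered by replicate, horizontal lines for the group mean and bars for the SD (n = 3). Groups do not overlap in any of the 8 panels, and in the Col12a1 and Mmp14 panels 1 Thy-Tet1+/+ library (253 and 165 CPM) stands far above the other 2.

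Neither receptor is a matrix protein, and both were higher. Pdgfra, the PDGF receptor that marks fibroblasts in most tissues, lies on chromosome 5 from 75151322 to 75198206 (plus strand). Its level was 35.2, 36.7 and 30.0 CPM in Thy-Tet1+/+ and 55.6, 50.7 and 54.3 CPM in the libraries labelled Thy-Tet1-/-. The gap between the groups was wider than either group's range, and the log2 fold change was 0.65 ± 0.12 (SE, n = 3 per group) with an adjusted p of 0.0856 in edgeR's quasi-likelihood test and 0.000573 in DESeq2. Without Thy-Tet1+/+ replicate 3 it was 0.57, under the limit.

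Pdgfrb, the PDGF receptor of pericytes and smooth muscle, which fibroblasts also carry, was at 37.7, 26.4 and 23.3 CPM in Thy-Tet1+/+ and at 51.9, 45.6 and 41.9 CPM in the libraries labelled Thy-Tet1-/-. It too was higher in each of the latter, by a log2 fold change of 0.68 ± 0.20 (SE, n = 3 per group) with an adjusted p of 0.156 in edgeR's quasi-likelihood test. Leaving out Thy-Tet1+/+ replicate 3 or Thy-Tet1-/- replicate 1 gave 0.54 and 0.57. The ratio of Pdgfra to Pdgfrb counts overlapped between the groups, at 0.934 to 1.39 and 1.07 to 1.30.

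Fibroblast markers that are not among the 42 genes were compared in the same libraries. Over 14 such genes, 2 met the limits as higher (Pi16 and Gsn) and 0 as lower, and 6 were higher without overlap. Over all genes tested these shares were 5.54%, 3.66% and 12.5%. Pi16, a marker of adventitial fibroblasts, was at 15.5, 18.1 and 14.4 CPM in Thy-Tet1+/+ and at 27.2, 31.8 and 24.3 CPM in the libraries labelled Thy-Tet1-/-. The summed level of the 14 genes was 1089 to 1394 CPM and 1705 to 1861 CPM. Gsn, the actin-binding protein gelsolin, made up most of that sum, at 567 to 942 CPM and 1046 to 1289 CPM. No gene of the list was at 0 in all libraries.

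Markers of other cells in the gland moved in several ways. Follicular cell markers summed to 256500 to 316700 CPM in Thy-Tet1+/+ and to 193500 to 239400 CPM in the libraries labelled Thy-Tet1-/-, nearly all of it from Tg, which encodes thyroglobulin. Of these 10 genes 4 were lower and 1 higher without overlap, where 14.3% and 12.5% of all genes tested were. Among the lower ones, Slc26a4 had only 1 to 5 counts per library and was not tested. Pericyte and smooth muscle markers (576 to 977 and 479 to 948 CPM) and endothelial markers (658 to 820 and 665 to 947 CPM) overlapped between the groups in their sums. Of the 12 pericyte and smooth muscle markers 2 were higher and 1 lower without overlap, and of the 10 endothelial markers 1 and 0 (12.5% and 14.3% of all genes tested). Of the higher ones, the pericyte potassium channel gene Kcnj8 (4.94 to 6.17 and 11.4 to 18.6 CPM) and the endothelial gene Egfl7 (18.0 to 37.2 and 52.2 to 73.8 CPM) met the limits. The mural cell receptor gene Notch3 (28 to 37.0 and 49.2 to 52.6 CPM) did not. The lower one was Cnn1 (2.30 to 3.39 and 1.02 to 2.13 CPM). The pericyte and smooth muscle markers that overlapped had log2 fold changes from -0.64 (Myh11) to 0.59 (Cspg4). Des, which muscle also expresses, ranged from 10 to 307 CPM. These genes were named after their values were seen. In RNA of a whole gland, fewer cells of a type and less RNA per cell cannot be told apart, and the part of the cell mixture in the values of the matrix genes was not tested.

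Markers of tissues next to the gland were present in uneven amounts. Skeletal muscle markers ranged from 935 to 7615 CPM in Thy-Tet1+/+ and from 19.1 to 8397 CPM in the libraries labelled Thy-Tet1-/-, parathyroid markers from 89.2 to 12920 and from 4234 to 9313 CPM, and adipocyte markers from 65.5 to 391 and from 197 to 1199 CPM. Cartilage markers were low, at 13.7 to 23.1 and 24.8 to 34.6 CPM without overlap, with 3 of 10 genes at 0 in all libraries. That sum came mostly from Col9a1 (3.44 to 12.34 and 12.8 to 20.97 CPM) and Col11a2 (3.85 to 4.22 and 6.22 to 14.02 CPM). Col2a1 had 0 to 2 counts per library. The other tested genes of the list had log2 fold changes of -0.78 (Comp), -0.96 (Hapln1) and 0.07 (Lect1). Whether cartilage was present was not tested. C cell markers (4876 to 20970 and 10290 to 17040 CPM), airway markers (35.6 to 45.2 and 25.3 to 50.7 CPM), Schwann cell markers (110 to 217 and 86.5 to 157 CPM) and blood markers (194 to 854 and 158 to 376 CPM) overlapped. The C cell sum varied mainly with Chga. Like the parathyroid gene Pth, Chga was lowest in Thy-Tet1+/+ replicate 2 (103 CPM) and highest in replicate 3 (18420 CPM). The C cell gene Calca was at 1902, 4612 and 2439 CPM in Thy-Tet1+/+ and at 4659, 4599 and 3653 CPM in the others. Ret, of the same list, went the other way, at 79.9, 104 and 79.2 CPM against 50.6, 40.9 and 29.5 CPM (log2 fold change -1.12). It was lower without overlap and was the only 1 of the 5 listed genes to meet the limits, where 3.66% of all genes tested were lower. Macrophage markers, at 124 to 425 and 186 to 215 CPM, were highest in Thy-Tet1+/+ replicate 2, and markers of thymocytes and lymphocytes, at 3.94 to 95.4 and 1.78 to 345 CPM, in Thy-Tet1-/- replicate 3.

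**Figure D3:**
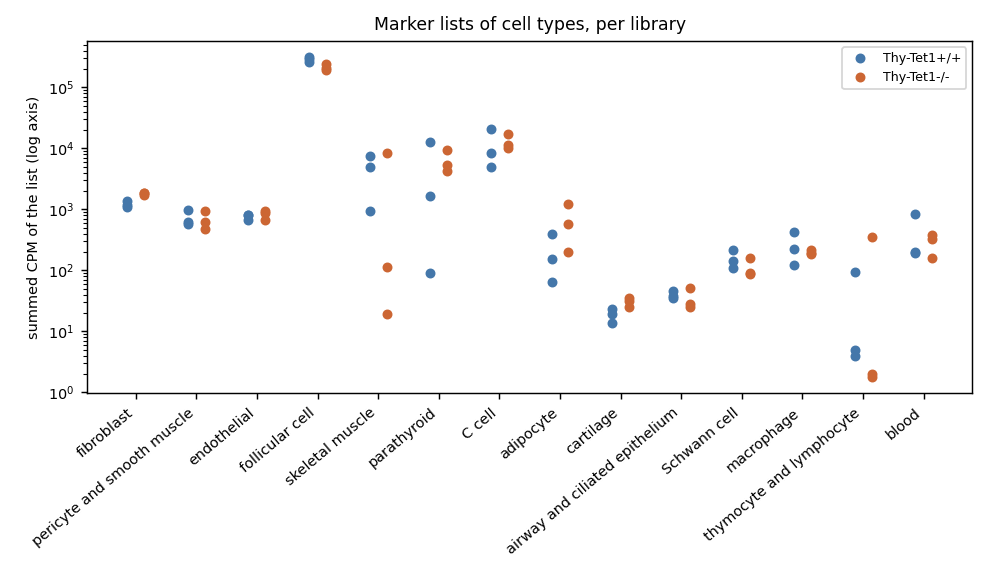
Summed CPM of each list of cell type markers in each library (vertical axis, log scale), 3 points per group for 14 lists. The fibroblast points of the libraries labelled Thy-Tet1-/- (1705 to 1861) lie above those of Thy-Tet1+/+ (1089 to 1394), the follicular cell points lie below, and the skeletal muscle points spread from 19.1 to 8397.

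Fibrillar collagens, which form the cables of the interstitial matrix, showed no member past the limits. Col1a1 was at 104, 89.0 and 88.9 CPM in Thy-Tet1+/+ and at 85.6, 87.3 and 60.4 CPM in the libraries labelled Thy-Tet1-/-, which were lower without overlap (log2 fold change -0.27, unadjusted p = 0.148 in edgeR). Its partner chain gene Col1a2 ranged from 129 to 175 CPM with a log2 fold change of 0.01. Col3a1, which encodes the chain of the thin reticular fibrils, was between 198 and 365 CPM, with its lowest value in Thy-Tet1-/- replicate 3 and a log2 fold change of -0.26.

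The chains of collagen V, which starts fibril assembly, had changes above 0. Col5a1 was at 30.3, 31.9 and 32.4 CPM against 41.1, 43.3 and 32.5 CPM, and the lowest library labelled Thy-Tet1-/- stood barely above the highest Thy-Tet1+/+ library (log2 fold change 0.31, unadjusted p = 0.0622 in edgeR). Col5a2 ranged from 33.5 to 57.6 CPM with a log2 fold change of 0.29. Summed over the 5 fibrillar collagens, the groups overlapped at 644 ± 59.4 and 592 ± 114 CPM (SD, n = 3).

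Col12a1 and Col14a1 encode collagens that sit on the surface of fibrils. Col12a1, at positions 79598987 to 79721141 of chromosome 9 (minus strand), was at 83.2, 253 and 69.8 CPM in Thy-Tet1+/+ and at 44.1, 46.6 and 53.8 CPM in the libraries labelled Thy-Tet1-/-. The groups did not overlap, and Thy-Tet1+/+ replicate 2 was more than 3-fold above any other library. The log2 fold change of -1.49 ± 0.49 (SE, n = 3 per group, adjusted p = 0.180 in edgeR's quasi-likelihood test) was the largest of the 42 genes. It was -0.67 without Thy-Tet1+/+ replicate 2, and without Thy-Tet1-/- replicate 1 or 2 the unadjusted p rose to 0.0542 and 0.0501. Col14a1 ranged from 26.4 to 47.5 CPM with a log2 fold change of 0.08.

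Collagen VI forms beaded microfibrils from 3 different chains. Col6a2, which was named after its values were seen, was at 102, 298 and 148 CPM in Thy-Tet1+/+ and at 118, 114 and 102 CPM in the libraries labelled Thy-Tet1-/-. Its groups overlapped, and the log2 fold change of -0.71 ± 0.37 had an unadjusted p of 0.0954 in edgeR and shrank to -0.17 without Thy-Tet1+/+ replicate 2. That library also held the highest Col6a1 level, 118 CPM in a range of 59.9 to 118 CPM (log2 fold change 0.13). Col6a3 ranged from 40.5 to 70.6 CPM with a log2 fold change of 0.21.

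The balance of the collagen VI chain genes differed between libraries. The ratio of Col6a1 to Col6a2 counts was 0.710, 0.396 and 0.404 in Thy-Tet1+/+ and 0.849, 0.816 and 0.796 in libraries labelled Thy-Tet1-/-, and the groups did not overlap. In contrast, the ratio of Col6a3 to Col6a1 was 0.509 to 0.676 and 0.507 to 0.706. Col6a1 and Col6a2 are neighbours on chromosome 10, on the same strand and 85161 bases apart, and Col18a1 follows at 326133 bases from Col6a1.

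Among the small proteoglycans and matricellular proteins, Sparc and Dcn had the highest levels, per kilobase as well as by CPM. Sparc encodes osteonectin, a collagen-binding glycoprotein that many matrix-producing cells secrete. It was at 1242, 1174 and 874 CPM in Thy-Tet1+/+ and at 816, 732 and 702 CPM in the libraries labelled Thy-Tet1-/-. The groups did not overlap. A log2 fold change of -0.55 ± 0.17 (SE, n = 3 per group, adjusted p = 0.170 in edgeR's quasi-likelihood test) was just inside the limit of 1.5-fold, which it passed without Thy-Tet1+/+ replicate 3 (-0.69) or without Thy-Tet1-/- replicate 1 (-0.64). With library totals it shrank to -0.37 and with scaling to follicular cell markers to -0.19.

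Dcn encodes decorin, which coats collagen fibrils and binds growth factors. It was at 283, 389 and 259 CPM in Thy-Tet1+/+ and at 433, 444 and 443 CPM in the libraries labelled Thy-Tet1-/-. The latter lay close together and above all 3 of the former. The log2 fold change of 0.50 ± 0.17 (SE, n = 3 per group, adjusted p = 0.197 in edgeR's quasi-likelihood test) did not reach the limit, which it passed without Thy-Tet1+/+ replicate 2 (0.70), with library totals (0.69) and with scaling to follicular cell markers (0.87).

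The lumican gene Lum lies 47337 bases from Dcn on chromosome 10 and encodes a proteoglycan of the same family. It ranged from 53.7 to 82.4 CPM with a log2 fold change of -0.03. The ratio of Dcn to Lum counts was 5.26, 4.71 and 4.23 in Thy-Tet1+/+ and 6.40, 6.41 and 7.83 in libraries labelled Thy-Tet1-/-, and the groups did not overlap. The biglycan gene Bgn (70.9 to 124 CPM, log2 fold change -0.17), the periostin gene Postn (35.0 to 134 CPM, 0.38) and the dermatopontin gene Dpt (32.6 to 94.4 CPM, 0.34) overlapped between the groups.

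**Figure D4:**
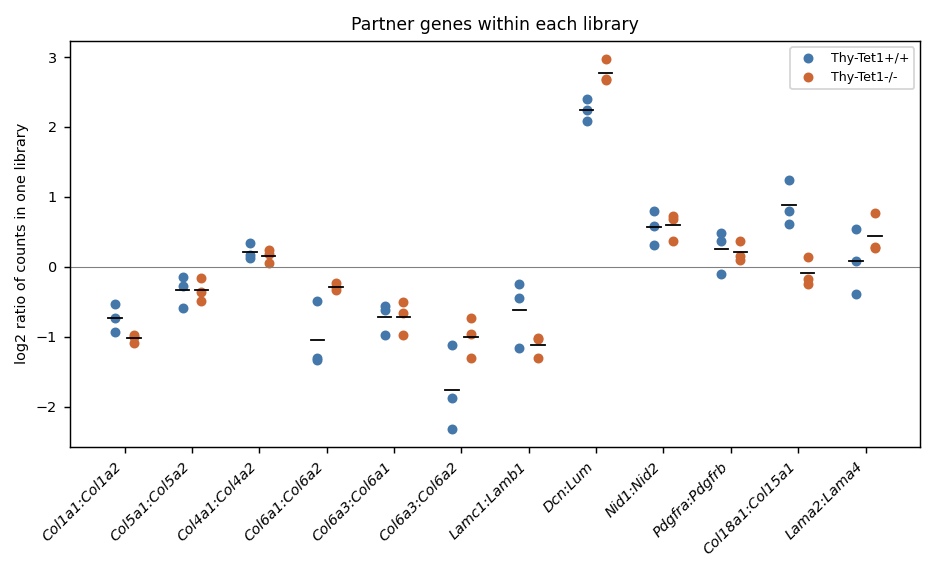
Log2 ratio of the counts of 2 related matrix genes within each library (vertical axis) for 12 gene pairs (horizontal axis), 3 points per group with a line at the group mean. Groups do not overlap for Col1a1:Col1a2, Col6a1:Col6a2, Dcn:Lum and Col18a1:Col15a1, and Col4a1:Col4a2 has the narrowest range.

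The 12 pairs were picked after the values had been seen, and their ratios are given as a description with no test. In 2 of them the ratio was higher without overlap in the libraries labelled Thy-Tet1-/- (Col6a1 to Col6a2 and Dcn to Lum), and in 2 it was lower (Col18a1 to Col15a1 and Col1a1 to Col1a2). The Col1a1 to Col1a2 ratio was 0.689, 0.526 and 0.604 in Thy-Tet1+/+ and 0.511, 0.499 and 0.470 in the others. The remaining 8 pairs overlapped, among them Lamc1 to Lamb1, at 0.447 to 0.840 and 0.405 to 0.492.

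Remodelling enzymes and their inhibitors included 1 member past the limits. Mmp14 encodes the membrane-bound collagenase MT1-MMP, which cleaves collagens and activates MMP2, and lies on chromosome 14 from 54431598 to 54442456 (plus strand). It was at 165, 93.3 and 87.9 CPM in Thy-Tet1+/+ and at 77.1, 72.9 and 78.5 CPM in libraries labelled Thy-Tet1-/-, and the groups did not overlap. The log2 fold change of -0.60 ± 0.25 (SE, n = 3 per group, adjusted p = 0.256 in edgeR's quasi-likelihood test) met the limits narrowly. It was -0.25 without Thy-Tet1+/+ replicate 1, and the call was kept under only 3 of 14 alternative settings.

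The MMP inhibitor genes differed widely in level. Timp3, whose product is bound to the matrix, was at 1048, 1081 and 1064 CPM in Thy-Tet1+/+ and at 1084, 1324 and 917 CPM in the libraries labelled Thy-Tet1-/-. Its Thy-Tet1+/+ values lay within those of the other group (log2 fold change 0.06 ± 0.16, unadjusted p = 0.733 in edgeR, -0.09 without Thy-Tet1-/- replicate 2), and 21.3% of its exonic bases overlap Syn3 on the opposite strand, a gene at 3.07 CPM. Timp2 was at 241, 269 and 238 CPM against 185, 224 and 196 CPM, lower without overlap, with a log2 fold change of -0.31 ± 0.12 that did not reach the limit. Timp1 was at 0.475 to 1.66 CPM in all libraries, and was the lowest of the 42 genes also per kilobase.

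The gelatinase gene Mmp2 (37.6 to 56.3 CPM, log2 fold change 0.28) and the crosslinking enzyme genes Lox (8.32 to 18.6 CPM, 0.36) and Loxl1 (13.7 to 20.1 CPM, 0.08) overlapped between the groups.

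Per kilobase of the longest annotated transcript (GENCODE M21), Sparc stood first among the 42 genes at 477 ± 85.1 CPM per kilobase in Thy-Tet1+/+ and 326 ± 25.8 in the libraries labelled Thy-Tet1-/- (SD, n = 3). Ordered by the mean over all 6 libraries, Timp3 followed at 225 ± 3.50 and 235 ± 43.3 CPM per kilobase, a level whose groups overlapped. Dcn was next at 66.1 ± 14.7 and 93.8 ± 1.31, followed by Col4a1 at 79.2 ± 4.4 and 62.6 ± 12 CPM per kilobase. In Thy-Tet1+/+ alone the mean of Col4a1, and those of Col4a2 (70.0) and Timp2 (67.2), were above that of Dcn. Sparc and Timp3 together held 30.4% of the summed CPM of the 42 genes, and the 5 genes with the highest CPM held 49.4%.

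Summed by role, the receptors were higher without overlap, at 63.1 ± 9.85 CPM in Thy-Tet1+/+ and 99.9 ± 6.47 CPM in the libraries labelled Thy-Tet1-/- (SD, n = 3). Fibril-associated collagens (171 ± 112 and 86.5 ± 3.53 CPM) and basement membrane and network collagens were lower without overlap. The first of these sums was 300.3 CPM in Thy-Tet1+/+ replicate 2, where Col12a1 was high, and the Thy-Tet1+/+ mean without that library was 107 CPM. The other 6 roles overlapped, as did the sum of all 42 genes, at 6934 ± 476 and 6274 ± 621 CPM.

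Libraries differed among themselves as well as by group. The highest library of a gene was on median 1.74-fold above its lowest, and this range passed 2-fold for 13 genes and reached 5.73-fold for Col12a1. The highest level fell in Thy-Tet1+/+ replicate 2 for 12 genes and in Thy-Tet1-/- replicate 2 for 12, and in Thy-Tet1-/- replicate 3 for 1. The lowest level fell in Thy-Tet1-/- replicate 3 for 12 genes and in Thy-Tet1+/+ replicate 3 for 12.

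The other genes of the matrix were taken from a list of 165, of which 154 were tested. In these, 8 were higher (5.19%) and 9 lower (5.84%) by the same limits, against 5.54% and 3.66% of all genes tested, and their median log2 fold change was -0.03. An unadjusted p under 0.05 was found for 27, a share close to the 18.9% of all genes tested. At an adjusted p under 0.05 there were 0 in edgeR's quasi-likelihood test. DESeq2 gave 13, a share close to the 8.43% of all genes. Lamb3 was among them, with an adjusted p of 3.37e-06 in DESeq2.

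Lamb3 encodes a chain of laminin-332, the laminin of epithelial basement membranes. Lamb3 was at 162, 235 and 173 CPM in Thy-Tet1+/+ and at 90.7, 96.7 and 79.0 CPM in the libraries labelled Thy-Tet1-/- (log2 fold change -1.09 ± 0.17, adjusted p = 0.0765 in edgeR's quasi-likelihood test). Every library labelled Thy-Tet1-/- was below every Thy-Tet1+/+ library. The matrix protease gene Adamts1 (log2 fold change -1.12), the fibulin 4 gene Efemp2 (-0.64), the basement membrane gene Fras1 (-0.68) and the lysyl oxidase family gene Loxl4 (-1.51) were lower as well.

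Of the higher ones, Mmp11, which encodes stromelysin 3, a protease made mainly by stromal cells, was at 8.07, 17.3 and 15.8 CPM in Thy-Tet1+/+ and at 36.6, 35.6 and 45.3 CPM in the libraries labelled Thy-Tet1-/- (log2 fold change 1.5 ± 0.28, adjusted p = 0.0919 in edgeR's quasi-likelihood test). The transmembrane collagen gene Col13a1 (0.83) and the tenascin X gene Tnxb (0.61) were also higher. So were the low-level genes Col11a2 (1.24, at 3.85 to 14 CPM), Col11a1 (1.16) and Mmp9 (1.18, at 0.642 to 2.64 CPM). The groups of Col11a1 overlapped, at 2.57 to 5.34 CPM in Thy-Tet1+/+ and 4.93 to 11.1 CPM in the libraries labelled Thy-Tet1-/-. Col11a2 is also a marker of cartilage, whose list is given above.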

How the data were processed

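RNA-seq counts of 3 Thy-Tet1+/+ and 3 Thy-Tet1-/- thyroid libraries were analysed. For 21878 genes the authors deposited read counts, which are whole numbers and were not scaled. The submitters' processing notes name mm10, and the aligner, counting program, annotation and use of strand are not given in the sources used here. The protocol text describes poly(A) selection and directional libraries and speaks of retinas, although tissue is labelled thyroid. The design text names 3 mice per group, but sample descriptions do not name individual mice, so p-values measure the spread between these libraries. Groups were taken from the labels. Date-like entries stood in place of 27 gene symbols and were restored from NCBI gene identifiers.

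The groups were compared by edgeR 4.0.16 under R 4.3.3 (filterByExpr, 14143 genes kept, all 42 members among them, TMM scaling, glmQLFit and glmQLFTest, no covariates), and p-values were adjusted by Benjamini-Hochberg over all tested genes. CPM used TMM-scaled library sizes. Scripts were tested on simulated data. Alternatives were RLE size factors, scaling to 10 follicular cell markers, DESeq2 1.42.0, limma-voom (limma 3.58.1), other count filters, a replicate block, each library left out and, chosen after seeing the data, library totals. Transcript lengths and exon overlaps came from GENCODE M21 and positions and promoters from RefSeq GRCm38.p6, the same assembly as mm10.

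The members and all gene lists were chosen with earlier results of these data known. Full values were given for the 10 members with the smallest p and the 5 with the highest mean CPM. Mmp14 and Col6a2 were added after their values were seen. The level in each library was also given for Nid2, Timp2, Col1a1 and Col5a1, which fall outside that rule and whose groups did not overlap. Of the other matrix genes past the limits, at most 6 per direction were named, and 1 of these is not reported here. The marker lists were fibroblast, pericyte and smooth muscle, endothelial, follicular cell, skeletal muscle, parathyroid, C cell, adipocyte, cartilage, airway, Schwann cell, macrophage, thymocyte and lymphocyte, and blood.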

Additional observations from a re-analysis of the deposited data

How the results depend on the processing

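Of the 42 genes 4 were higher, 4 lower and 0 past the adjusted limit. Scaling to follicular cell markers gave 11 higher, 1 lower and 4 with an adjusted p under 0.05 (18.8% and 0.863% of all genes, and 338 genes), a median of 0.41 (all genes 0.36), and turned Col4a1 (0.0128) and Col4a2 (0.0664) above 0. Library totals gave 6 higher and 2 lower (10.4% and 1.68% of all genes) and a median of 0.24 (all genes 0.19). DESeq2 gave 8 genes an adjusted p under 0.05 (8.43% of all genes), and limma-voom and RLE size factors gave 0. Leaving out each library in turn gave 2 to 5 higher (2 without Thy-Tet1+/+ replicate 3 or Thy-Tet1-/- replicate 1), 2 to 5 lower (2 without Thy-Tet1-/- replicate 2, 5 without Thy-Tet1+/+ replicate 3), where 3.97% to 5.97% and 3.51% to 4.78% of all genes were called, medians of 0.01 to 0.14 and 0 adjusted calls throughout, and Timp3 ranged from -0.0947 without Thy-Tet1-/- replicate 2 to 0.169 without Thy-Tet1-/- replicate 3. The cause of these changes was not tested. The deviations of same-numbered libraries had correlations of -0.17, -0.37 and -0.19, so that the numbers were not taken as pairs; with a replicate block 5 members were higher, 3 lower and 0 past the adjusted limit, and over all genes 0 passed it, against 16 without the block. There were 3 libraries per group, and how far the spread between libraries or the depth limits these comparisons was not tested. Timp1 had only 4 to 31 counts per library.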
